A study of Mus musculus with 273 samples.

Results

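The miRNAs described here are miR-802, miR-1948, miR-101a and miR-101b (mmu-mir-802, mmu-mir-1948, mmu-mir-101a and mmu-mir-101b in the count tables), 4 of the 1226 miRNA hairpins counted in the series. They were listed by name as miRNAs that are rich in liver but lie outside the miR-122 and miR-192 loci, and each was found in all 4 count tables. Small RNA was sequenced from liver (77 libraries), right cortex (78), right striatum (46) and hypothalamus (72) of male wild-type C57BL/6J mice, an inbred strain, at 26 weeks of age. All groups were wild type. By the library numbers and L codes in the labels, liver libraries were numbered apart from the brain libraries and shared a run of numbers with 1 hypothalamus library only, so liver against brain cannot be told apart from library run. Tissue was taken every 3 h over 36 h, and times 24 h apart were joined as zeitgeber time (ZT), so that ZT0 to ZT12 was covered by a second passage (24 to 36 h) and a first passage (0 to 12 h). The 31 groups of tissue and ZT held 2 to 12 libraries. Liver had 12, 12, 12, 11, 12, 6, 6 and 6 libraries at ZT0, 3, 6, 9, 12, 15, 18 and 21, and striatum had none at ZT15. Animal codes in the labels were taken as animals, and each liver library came from a different code, although the labels do not state in words that the mice were separate replicates.

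A miRNA is cut from a hairpin precursor and guides Argonaute to mRNAs that pair with its seed, the bases near its 5′ end, and such mRNAs are repressed. In mice miR-802 is known to rise in the liver in obesity. miR-101 is known from human cells for repressing EZH2, the Polycomb enzyme that methylates histone H3. In the mouse it comes from separate hairpins, so the same family can be supplied by different loci in different tissues.

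The mature sequences below show how far the members can be told apart by sequence. They are from RefSeq (GRCm38.p6), written 5′ to 3′ with the seed, bases 2 to 8, in capitals, and 3 of the 4 members matched that table. miR-144-3p, an erythroid miRNA, and miR-101c are given because their sequences are close to miR-101.
miR-802-5p: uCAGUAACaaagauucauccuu
miR-802-3p: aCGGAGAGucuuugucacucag
miR-101a-3p: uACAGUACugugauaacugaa
miR-101b-3p: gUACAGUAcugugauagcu
miR-101c: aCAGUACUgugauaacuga
miR-144-3p: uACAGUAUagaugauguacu
As annotated, miR-101b-3p starts 1 base earlier than miR-101a-3p, so that their seeds are read from shifted frames. Over the 18 bases that both hold they differ by 1 substitution, A16G, with positions counted from 1 at the 5′ end of miR-101a-3p and the miR-101a base given first. All 19 bases of miR-101c lie within miR-101a-3p. Reads of miR-101a could therefore also match the miR-101c locus, and how the authors' counting treated them is not given in the sources used here, so the miR-101a counts are uncertain in that respect. miR-101c itself had at most 2 counts in any library. miR-144-3p shares a run of 7 bases with miR-101a-3p. Each of these 6 seeds was carried by 1 of the 1738 mature miRNAs of the RefSeq table, so none of them forms a seed family there.

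The hairpins of miR-101a and miR-101b, on which reads were counted, are shown with both mature arms in capitals.
miR-101a hairpin: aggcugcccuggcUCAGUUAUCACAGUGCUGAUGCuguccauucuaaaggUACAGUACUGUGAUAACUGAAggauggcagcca
miR-101b hairpin: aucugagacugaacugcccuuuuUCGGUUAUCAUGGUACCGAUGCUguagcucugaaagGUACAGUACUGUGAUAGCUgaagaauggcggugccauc
A hairpin count does not say which arm a read came from.

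On GRCm38 (GENCODE vM21 annotation), Mir101a lies at chr4:101346945-101347027 on the minus strand, within an exon of the long noncoding RNA gene E130102H24Rik. Mir101b lies at chr19:29135279-29135375 on the plus strand, in an intron of Rcl1, which encodes a protein of ribosomal RNA processing. Mir802 lies at chr16:93369720-93369816 on the plus strand between annotated genes, 0.7 kb from the long noncoding RNA 1810044K17Rik. Mir1948 lies at chr18:12714811-12714895 on the plus strand, in an intron of Ttc39c. Each has its nearest other annotated miRNA gene at least 296.9 kb away, so none of the 4 is part of a cluster.

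Library totals ran from 1988671 to 5236177 counts in liver, from 1164449 to 4980887 in cortex, from 26341 to 4022070 in striatum and from 1079380 to 3954710 in hypothalamus. The lowest striatum total was ZT9 replicate 6, and the next lowest was 743902. Levels are given as CPM, a hairpin's counts per 1000000 hairpin counts of its library. By correlation with the other libraries of the same tissue, 3 liver, 3 cortex, 7 striatum and 3 hypothalamus libraries stood apart, and results that rest on them are given with and without them. The tissues carried their defining miRNAs. Hepatocyte miR-122 averaged 21398 ± 1647 CPM in liver, against 1.51 ± 0.69 in cortex, 1.09 ± 0.79 in striatum and 2.82 ± 6.74 in hypothalamus (SD, n as above). Of 8 neuronal hairpins, 6 had no count in any liver library, and the 8 summed to 4.16 to 12.2 CPM in liver. Their sum had medians of 21368, 8706 and 3140 CPM in cortex, striatum and hypothalamus, mostly from miR-128-1 and miR-128-2. The 6 without a liver count, copies of miR-124 and miR-9, were low in brain too, with regional means of 0.24 to 17.8 CPM. Their absence from liver therefore says little.

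miR-802 was the most variable of the 4 in liver and was present at a low level in brain. In liver it ranged from 164 to 1065 CPM with a median of 375, and its mean was 409 ± 148 (SD, n = 77). The highest library, ZT12 replicate 6, had 6.5 times the level of the lowest, ZT21 replicate 4. In cortex it ranged from 1.83 to 17.1 CPM with a median of 7.63. In striatum the range was 0 to 10.01 CPM with a median of 2.04, and in hypothalamus it was 0 to 5.97 CPM with a median of 1.12. The highest of the 196 brain libraries therefore lay below the lowest liver library. miR-802 had no count in 2 striatum and 8 hypothalamus libraries. Over all libraries of a region, the limit set by 3 counts was 0.759 to 2.78 CPM in hypothalamus. In striatum it was 0.746 to 114 CPM, with a second highest of 4.03 CPM. That limit covers counting error only. In these bulk samples, fewer cells of a type and less RNA per cell cannot be told apart.

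miR-1948 had nearly the same mean in liver as miR-802 but a smaller spread. It ranged from 214 to 551 CPM in liver with a median of 432, and its mean was 420.3 ± 63.5 (SD, n = 77), an SD of 15.1% of the mean against 36.1% for miR-802. In brain it was at 4.02 ± 1.38 CPM in cortex (n = 78), 3.95 ± 2.22 in striatum (n = 46) and 3.69 ± 1.53 in hypothalamus (SD, n = 72). No brain library exceeded 10.6 CPM. The liver and brain libraries did not overlap.

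**Figure D1:**
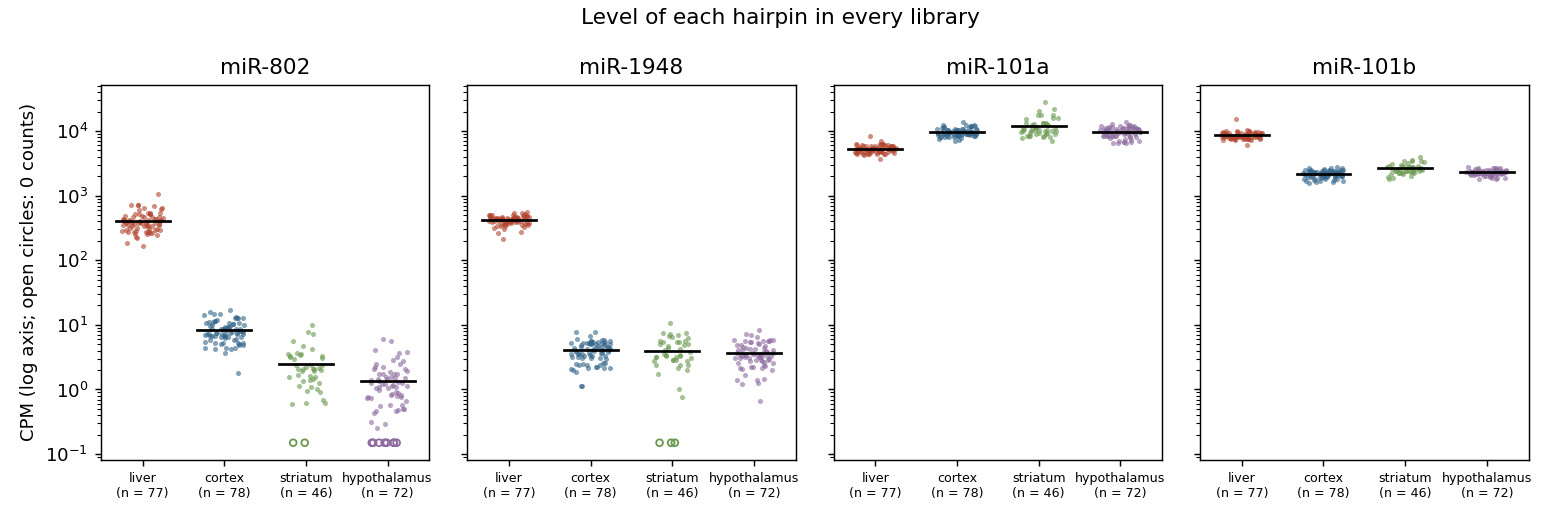
Level of each hairpin in every library, in CPM on a log axis, by tissue. Points are libraries, bars are means, and open circles at the bottom mark libraries with 0 counts. miR-802, miR-1948 and miR-101b in liver lay above every brain library, whereas miR-101a in liver (mean 5298 CPM) lay lower than in cortex (mean 9653 CPM) on this scale.

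The miR-101a and miR-101b hairpins had opposite orders of mean level between liver and the brain regions on the CPM scale. Among the brain regions both had their highest mean in striatum. miR-101b averaged 8585 ± 1111 CPM in liver (6121 to 15317, median 8441), against 2168 ± 275 in cortex, 2633 ± 466.4 in striatum and 2283 ± 218 in hypothalamus. The highest brain library had 3899 CPM, which is below the lowest liver library. miR-101a averaged 5298 ± 685 CPM in liver (3715 to 8275, median 5279), against 9653 ± 1294 in cortex, 11938 ± 4200 in striatum and 9649 ± 1700 in hypothalamus. On this CPM scale their sum was 13884 ± 1723 CPM in liver, against 11820 ± 1446 in cortex, 14571 ± 4519 in striatum and 11932 ± 1881 in hypothalamus.

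The share of miR-101b in the 2 hairpins' counts needs no scaling between libraries, and it separated liver from brain. miR-101b made up 58.3% to 65.2% of miR-101a and miR-101b counts in liver, with a median of 61.8%. In brain the share was 13.7% to 22.5% in cortex, 10.9% to 25.8% in striatum and 15.96% to 23.7% in hypothalamus, with medians of 18.6%, 18.9% and 18.9%. No brain library reached the lowest liver library. As a log2 ratio of miR-101a to miR-101b, with 0.5 added to each count, liver had −0.70 ± 0.10 (SD, n = 77), against 2.15 ± 0.19 in cortex (n = 78), 2.13 ± 0.34 in striatum (n = 46) and 2.06 ± 0.17 in hypothalamus (n = 72). Since the members were listed as rich in liver, these differences are descriptions with no test. For scale, 80.7%, 81.9% and 81.6% of all hairpins tested differed by at least 2-fold with an edgeR adjusted p under 0.05 between liver and cortex, striatum and hypothalamus, and 27.3%, 28.7% and 29.2% were higher in liver.

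**Figure D2:**
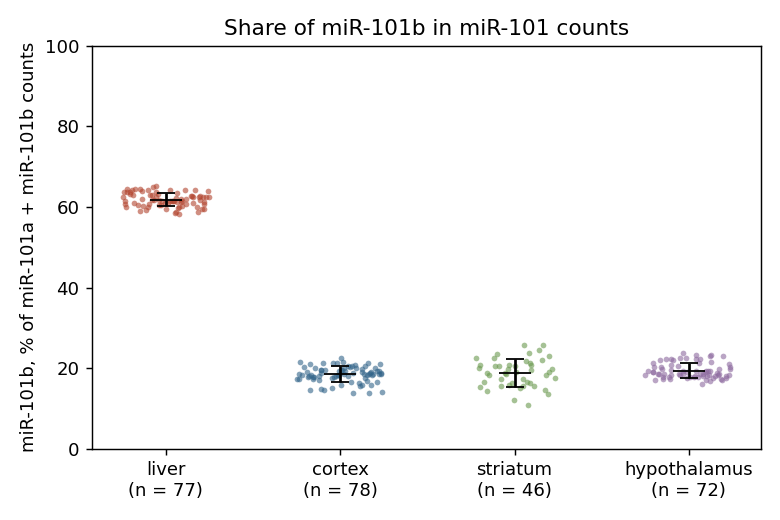
Share of miR-101b in the summed counts of miR-101a and miR-101b, in percent, for each library by tissue. Points are libraries, and bars are the mean and SD. Liver libraries sit between 58.3% and 65.2%, and all brain libraries sit at or below 25.8%.

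How much higher each member was in liver depends on the scaling between libraries. With TMM, which scales on the bulk of hairpins, the log2 ratio of liver over cortex was 7.57 ± 0.09 for miR-802, 8.61 ± 0.07 for miR-1948, 3.90 ± 0.03 for miR-101b and 1.04 ± 0.05 for miR-101a (SE). Against striatum the same 4 log2 ratios were 9.38 ± 0.15, 8.58 ± 0.09, 3.63 ± 0.04 and 0.71 ± 0.06, and against hypothalamus they were 10.30 ± 0.14, 8.77 ± 0.07, 3.87 ± 0.03 and 1.09 ± 0.05. The median over all 414 hairpins tested was −1.31 against cortex, −1.40 against striatum and −1.27 against hypothalamus with TMM. With library totals alone that median was −3.23, −3.35 and −3.25, and miR-101a turned to −0.86, −1.17 and −0.86, so its direction between liver and brain flips with the scaling. Both miR-101 hairpins were higher in liver with TMM, so the order of their sum given above in CPM also depends on the scaling. miR-802, miR-1948 and miR-101b were positive under TMM, DESeq2 size factors and library totals, the smallest value being 1.71 for miR-101b against striatum.

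Within the brain, miR-802 had its highest mean in cortex, whereas no other member differed by 2-fold between regions. miR-802 averaged 8.32 ± 3.07 CPM in cortex (n = 78), 2.50 ± 2.00 in striatum (n = 46) and 1.35 ± 1.19 in hypothalamus (SD, n = 72), and the ranges of the 3 regions overlap. The log2 ratio was 1.81 ± 0.15 for cortex over striatum, 2.72 ± 0.15 for cortex over hypothalamus and 0.92 ± 0.19 for striatum over hypothalamus (SE). Within striatum or hypothalamus alone miR-802 was below the filter on low counts, and it entered these comparisons through liver and cortex, where it is higher, so its ratios are given as descriptions with no test. A call between regions required an edgeR adjusted p under 0.05 and a 2-fold difference, and 0 of the other 3 members were called in any of these comparisons. Of all hairpins tested, 14.5%, 28.3% and 13.5% were called for cortex against striatum, cortex against hypothalamus and striatum against hypothalamus, and 6.76%, 11.1% and 5.07% were called higher in the region named first. With animal as a replicate block the cortex ratios were 1.80 over striatum and 2.73 over hypothalamus, and without the libraries that stood apart they were 1.92 and 2.74.

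miR-802 and miR-1948 counts in brain were set beside those of miR-122, a hepatocyte miRNA. Summed over libraries there were 1888 counts of miR-802 and 363 of miR-122 in cortex, or 520.1 per 100 counts of miR-122. The same figure was 179 in striatum and 46.0 in hypothalamus, against 1.94 in liver. For miR-1948 it was 275 in cortex, 350.0 in striatum and 139 in hypothalamus, against 1.95 in liver. Both figures were higher in each brain region than in liver. The brain figures rest on few miR-122 counts, with medians of 5, 2 and 4 per library in cortex, striatum and hypothalamus. The highest hypothalamus library held 109 of the 459 miR-122 counts of that region. Where the brain counts come from was not tested.

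miR-1948 gave log2 ratios of −0.02 ± 0.10 for cortex over striatum, 0.17 ± 0.08 for cortex over hypothalamus and 0.19 ± 0.10 for striatum over hypothalamus (SE), none past the threshold in edgeR (adjusted p = 0.833, 0.0501 and 0.0770), and the first of these signs flips to 0.047 in brain libraries alone and the second to −0.10 with DESeq2 size factors. With animal as a replicate block, cortex over hypothalamus was 0.19 (edgeR adjusted p = 0.0360). In brain libraries alone it was 0.26 (edgeR adjusted p = 0.00694), and 0.25 there with library run as a term (edgeR adjusted p = 0.00761). All of these were still under 2-fold. miR-101a was lower in cortex than in striatum by a log2 ratio of −0.33 ± 0.06, and miR-101b by −0.28 ± 0.04 (edgeR adjusted p = 1.25e-07 and 2.64e-11), both under 2-fold. Without the libraries that stood apart the miR-101a value was −0.14 (adjusted p = 0.0125). Striatum also held the highest miR-101a library of the series, ZT3 replicate 3 with 28109 CPM, which was among those that stood apart. miR-101a was higher in striatum than in hypothalamus by a log2 ratio of 0.38 ± 0.06 and miR-101b by 0.25 ± 0.04 (edgeR adjusted p = 3.35e-09 and 3.99e-09), again under 2-fold. Between cortex and hypothalamus, miR-101a differed by 0.05 ± 0.05 and miR-101b by −0.03 ± 0.03, and the signs flip to −0.22 for miR-101a with DESeq2 size factors and to 0.04 for miR-101b in brain libraries alone. Over 10 settings the miR-101b value ran from −0.30 to 0.048, all under 2-fold. Its lowest adjusted p over these edgeR and DESeq2 settings was 2.44e-19, so its size depends on the setting.

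The miR-101a to miR-101b ratio was compared between brain regions and between passages in 7 permutation tests, adjusted together. It was higher in cortex than in hypothalamus by 0.09 ± 0.03 on the log2 scale (SE; two-sided permutation test, p = 0.00266, adjusted p = 0.00931). The difference was 0.11 within library runs (adjusted p = 7e-05) and 0.08 when animals with both regions were paired (adjusted p = 0.0301). Cortex minus striatum was 0.02 ± 0.05 and striatum minus hypothalamus 0.07 ± 0.05, neither past the threshold (permutation, adjusted p = 0.788 and 0.254), and without the libraries that stood apart cortex minus striatum was 0.09 (permutation, adjusted p = 0.108). The ratio moved with library run, a set of libraries numbered in sequence that carry the same L code. In hypothalamus the means of the runs numbered 1 and 2 were 1.81 and 1.78, against 2.08 to 2.21 in the other runs. In cortex the run means ran from 1.94 to 2.27, and in striatum from 1.71 to 2.42.

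No member followed a 24 h rhythm that passed the threshold in any tissue. Rhythm was fitted as a cosine and a sine of 24 h, and its size is the log2 ratio of the curve's highest to its lowest point. In liver 0 of 4 members were called, where 4.98% of all 241 hairpins tested were. At an unadjusted p under 0.05, 49 of those hairpins passed. miR-802 in liver averaged 398 ± 118, 352 ± 105, 450.4 ± 175, 416 ± 128, 454 ± 224, 393 ± 115, 387 ± 87.6 and 396 ± 164 CPM from ZT0 to ZT21 in steps of 3 h (SD). The lowest mean, at ZT3, and the highest, at ZT12, had overlapping libraries. The fitted size was 0.21 ± 0.14 (SE; edgeR adjusted p = 0.601).

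miR-1948 averaged 442 ± 59.7, 438 ± 39.7, 405 ± 67.7, 399 ± 92.5, 417 ± 66.2, 382 ± 45.9, 458 ± 47.0 and 417 ± 43.1 CPM over the same 8 times in liver. It was lowest at ZT15 and highest at ZT18, and these neighbouring groups overlapped. Its size was 0.16 ± 0.07 with a peak at ZT21.3 ± 1.7 h (SE; edgeR adjusted p = 0.321). The group means of miR-101a lay between 4775 CPM at ZT15 and 5576 CPM at ZT18, and those of miR-101b between 7850 CPM at ZT21 and 9185 CPM at ZT9. The ZT9 mean of miR-101b includes the highest liver library, ZT9 replicate 4 with 15317 CPM, which stood apart. Their sizes were 0.08 ± 0.05 and 0.06 ± 0.05 (edgeR adjusted p = 0.589 and 0.757). The median size over all liver hairpins tested was 0.14, and that of the 4 members was 0.12.

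**Figure D3:**
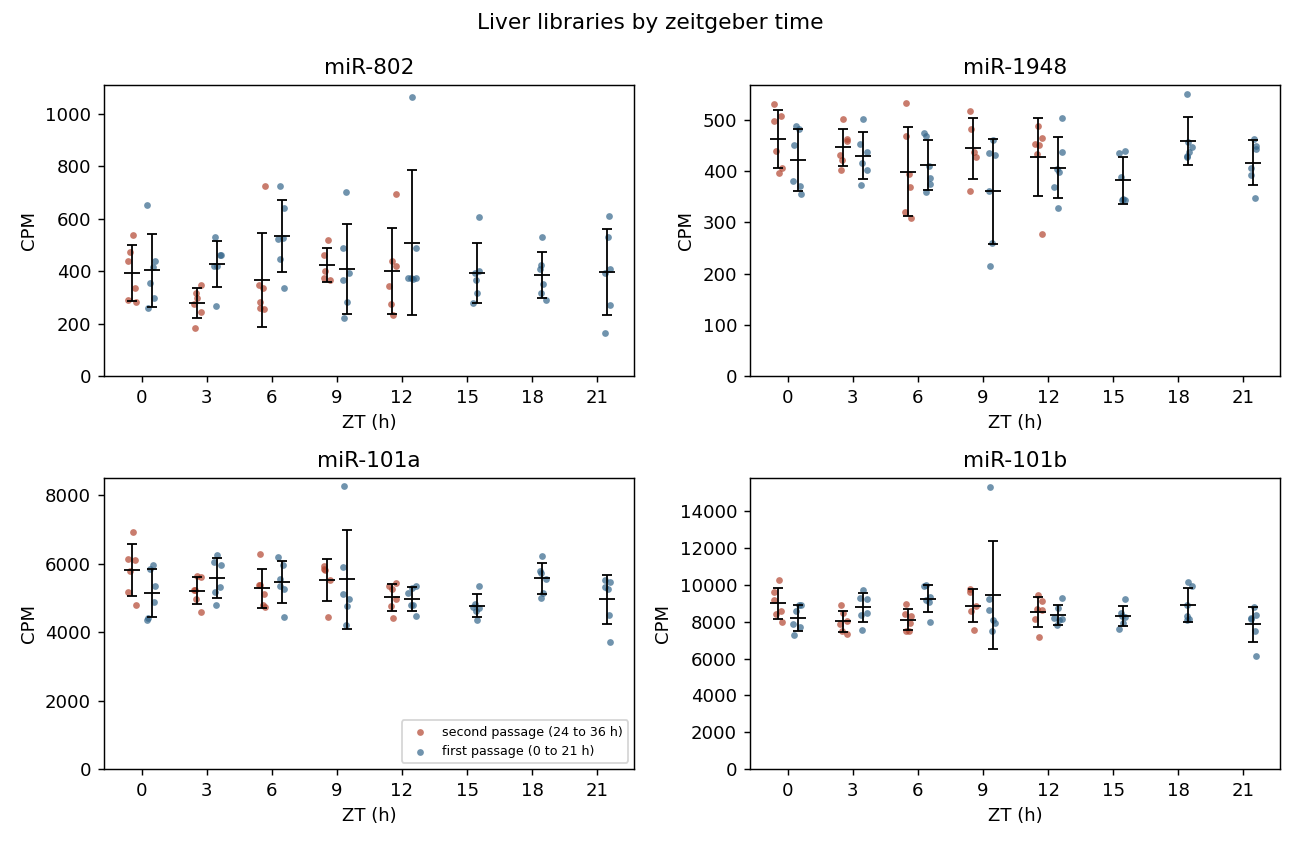
Levels of the 4 hairpins in liver by ZT, in CPM, with the second passage (24 to 36 h) left of the first (0 to 21 h). Points are libraries, and bars are the mean and SD of each group. The groups overlap at every ZT, and miR-802 has 1 library at 1065 CPM at ZT12.

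Planned contrasts within liver gave the same picture for single times. For ZT6 minus ZT18 the log2 ratios were 0.17 ± 0.23 for miR-802, −0.23 ± 0.10 for miR-1948, −0.10 ± 0.07 for miR-101a and −0.09 ± 0.08 for miR-101b (SE). For ZT12 minus ZT0 they were 0.17 ± 0.19, −0.10 ± 0.08, −0.14 ± 0.06 and −0.04 ± 0.06 in the same order. None of the 4 was called in either contrast, where 2.71% and 0% of 258 hairpins were, and the smallest edgeR adjusted p was 0.452, for miR-1948 at ZT6 minus ZT18. For ZT12 minus ZT0, 17 hairpins passed at an unadjusted p under 0.05, among them miR-101a (edgeR p = 0.0241), and DESeq2 called 0.

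In brain the rhythm sizes of the members that passed the filter on low counts ran from 0.003 to 0.39, with no edgeR adjusted p under 0.986. miR-802 was below the filter on low counts in striatum and hypothalamus, so its rhythm was not tested there alone. The share of all hairpins called was 0.254% in cortex, 0.528% in striatum and 0.263% in hypothalamus. The difference in rhythm between liver and each brain region was tested as an interaction. miR-802 was left out for striatum and hypothalamus, where it was below the filter, and no member was called in the 10 remaining tests, where 1.34% of hairpins were called for cortex, 1.85% for striatum and 0.804% for hypothalamus, and the smallest edgeR adjusted p was 0.655, for miR-101b in liver and cortex with a size of 0.12 ± 0.08 (SE).

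Although neither miR-101 hairpin was called alone, their ratio in liver varied over the day. The log2 ratio of miR-101a to miR-101b averaged −0.66 ± 0.11 at ZT0, −0.63 ± 0.06 at ZT3, −0.69 ± 0.13 at ZT6, −0.73 ± 0.09 at ZT9, −0.76 ± 0.08 at ZT12, −0.80 ± 0.06 at ZT15, −0.68 ± 0.10 at ZT18 and −0.66 ± 0.08 at ZT21 (SD). Neighbouring times overlapped. A 24 h curve had a size of 0.12 ± 0.03 with its peak at ZT0.92 ± 1.02 h and held 19.1% of the variance (SE; permutation test, p = 0.00056, adjusted over 4 tissues p = 0.00224). The size was 0.12 within library runs (adjusted p = 0.00144), 0.12 without the libraries that stood apart (adjusted p = 0.00244), 0.12 at 0 to 21 h alone (adjusted p = 0.0192) and 0.16 at 15 to 36 h alone (adjusted p = 0.00416), all by permutation. These windows share the libraries of ZT15 to ZT21, so they are not separate tests. The fitted peak was at ZT23.2 ± 1.1 h in the earlier window and at ZT2.1 ± 0.9 h in the later (SE). In cortex, striatum and hypothalamus the size was 0.04 ± 0.06, 0.07 ± 0.18 and 0.05 ± 0.06, none past the threshold (permutation, adjusted p = 0.929 each), and a difference between liver and brain was not tested. The brain sizes moved with the setting, to 0.13 in cortex at 0 to 21 h alone and 0.19 at 15 to 36 h alone (permutation, adjusted p = 0.709 and 0.0899), and to 0.21 in striatum without the libraries that stood apart (permutation, adjusted p = 0.611). This comparison was added after the values were seen.

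**Figure D4:**
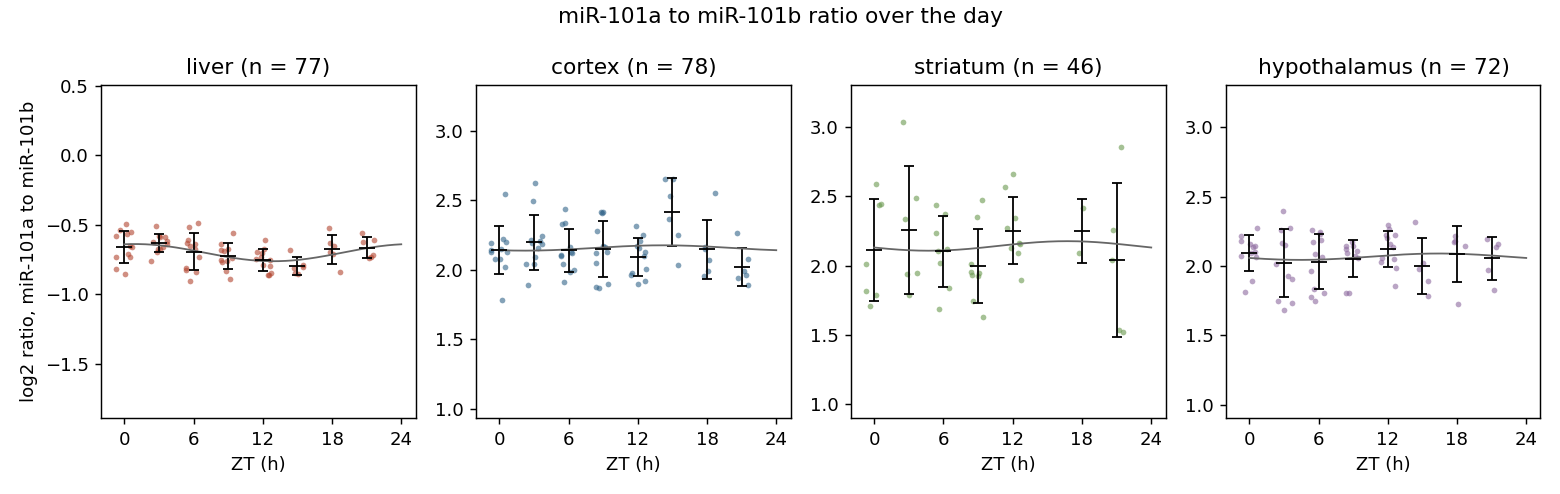
Log2 ratio of miR-101a to miR-101b by ZT in each tissue. Points are libraries, bars are the mean and SD of each ZT group, and lines are fitted 24 h curves; the vertical axes span the same range but are centred on each tissue's median. Mean liver values run from −0.63 at ZT3 to −0.80 at ZT15.

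Of the 4 members, miR-101b in cortex was the 1 called between the second and the first passage. The passages came from different animal codes, with mostly higher code numbers in the second, so passage and set of animals cannot be told apart. Over ZT0 to ZT12 in cortex, miR-101b ranged from 1751 to 2778 CPM with a median of 2326 in the second passage (n = 30), against 1611 to 2543 CPM with a median of 2094 in the first (n = 30). The ranges overlap. The log2 ratio was 0.14 ± 0.05 (SE; edgeR adjusted p = 0.0153), and with library run as a term it was 0.13 (adjusted p = 0.0342). In cortex 30.7% of 398 hairpins were called between passages and 17.6% were called higher and 13.1% lower in the second, so a call there was common. miR-101a gave a log2 ratio of −0.01 ± 0.06 (edgeR adjusted p = 0.888). The ratio of miR-101a to miR-101b in cortex was 2.07 ± 0.11 in the second passage and 2.22 ± 0.19 in the first (SD, n = 30 each), a difference of −0.15 ± 0.04 (SE; permutation, adjusted p = 0.00301). Within library runs that difference was −0.12 (permutation, adjusted p = 0.0215).

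In liver, miR-802 gave the widest passage difference of the members but did not pass the correction. It ranged from 184 to 725 CPM with a median of 344 in the second passage (n = 29), against 222 to 1065 CPM with a median of 420 in the first (n = 30). The log2 ratio was −0.34 ± 0.11 (SE; edgeR p = 0.00457, adjusted p = 0.281). The means were lower in the second passage at ZT0, ZT3, ZT6 and ZT12, with 278 against 426 CPM at ZT3, and higher at ZT9, with 424 against 409 CPM. No liver hairpin was called between passages in edgeR (0% of 246), 10 passed at an unadjusted p under 0.05, and DESeq2 called 1. The liver ratio of miR-101a to miR-101b was −0.66 ± 0.11 in the second passage and −0.72 ± 0.09 in the first, a difference of 0.06 ± 0.03 (permutation, adjusted p = 0.0767). In striatum and hypothalamus no member was called, nor was any hairpin (0% of 381 and 0% of 384), where 50 and 4 passed at an unadjusted p under 0.05 in edgeR and DESeq2 called 0 in each.

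Across the 77 liver libraries miR-802 and miR-1948 were negatively correlated. The 10 libraries with the most miR-802 all had less miR-1948 than the liver median of 432 CPM, whereas of the 10 with the least miR-802 5 were at or above that median and 5 below. ZT12 replicate 6 had 1065 CPM of miR-802 and 328 CPM of miR-1948, and ZT6 replicate 8 had 725 and 309 CPM. On the log2 scale with TMM, Pearson's r was −0.38 (permutation, adjusted p = 0.00285) and Spearman's rho was −0.38 (permutation, adjusted p = 0.0038), adjusted over 10 relations. Without the 2 libraries farthest from the median of miR-802 r was −0.34, and within library runs it was −0.42. These relations were computed after the values were seen. Library depth had an r of 0.17 with miR-802 and −0.13 with miR-1948. The correlation of a library with the rest of liver, low where a library stands apart, had an r of 0.00 with miR-802 and 0.57 with miR-1948. The log2 of the summed CPM of 3 erythroid hairpins, among them miR-144, had an r of −0.27 with miR-802 and −0.25 with miR-1948. The part of these measures in the relation was not tested.

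**Figure D5:**
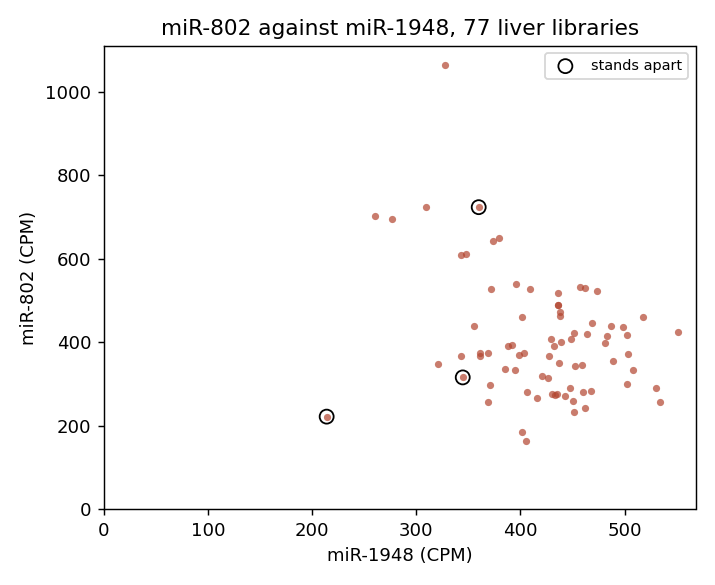
miR-802 against miR-1948 in CPM, each point 1 of 77 liver libraries, with rings around the 3 that stood apart. The libraries with the most miR-802 lie at low to middle levels of miR-1948.

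miR-101a and miR-101b, transcribed from different chromosomes, varied together over the liver libraries. Their 3p sequences share a run of 15 bases. The treatment of reads that match several places is not given in the sources used here, and its part was not tested. Pearson's r was 0.80 and Spearman's rho 0.63 (permutation, adjusted p = 0.0001 each, from the smallest p of 1e-05 that the permutations can give). Without the 2 libraries farthest out r was 0.69, and within library runs it was 0.81. The correlation of a library with the rest of liver had an r of −0.34 with miR-101a and −0.50 with miR-101b. The erythroid sum had an r of 0.35 with miR-101a and 0.29 with miR-101b. The part of these measures in the relation was not tested. miR-1948 and miR-101b had an r of −0.31 (permutation, adjusted p = 0.0409), which rested on 2 libraries, since it was 0.0092 without the pair farthest from the median of miR-1948. miR-802 and miR-101b had a rho of 0.33 (permutation, adjusted p = 0.0130) but an r of 0.09 (permutation, adjusted p = 0.635). For the same member in liver and in cortex of 1 animal, the 4 values of r lay between −0.08 and 0.08 over 77 animals, none past the threshold (permutation, smallest adjusted p = 0.635).

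The hairpins whose pattern was most like each member were found by Pearson's r among 346 other hairpins, over the 31 means of tissue and ZT. Means of 1 tissue share the steps between tissues and so give high values throughout. For miR-1948 the hairpins most like it were miR-192, miR-194-1 and miR-194-2, with r of 0.998 each. For miR-101b they were miR-192 (r = 0.999), miR-194-1 (0.998) and miR-203b (0.997). miR-802 was most like miR-126a, miR-203 and miR-378a (r = 0.998, 0.992 and 0.992), and miR-101a was most like miR-19a, miR-32 and miR-21a (r = 0.969, 0.967 and 0.964). Within the 77 liver libraries, after each ZT group was centred, with 174 candidates, the order was different. miR-802 was then most like miR-182 (r = 0.51), miR-31 (0.46) and miR-148a (0.46), and miR-1948 most like miR-423 (0.75), miR-28a (0.72) and miR-421 (0.69). miR-101a was most like miR-101b (0.83), miR-340 (0.76) and miR-33 (0.59), and miR-101b like miR-101a (0.83), miR-340 (0.73) and miR-16-1 (0.57).

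Of 8 other liver miRNAs (miR-122, miR-192, miR-194-1, miR-194-2, miR-215, miR-148a, miR-193a and miR-378a), all were tested in liver, and 0 were called for rhythm and 0 between passages. Their rhythm sizes ran from 0.04 for miR-122 to 0.62 for miR-193a (edgeR adjusted p = 0.144), with a median of 0.11, beside the median of 0.14 over all hairpins. miR-144, close to miR-101 in sequence, averaged 203 ± 63.4 CPM in liver, against 74.8 ± 22.5 in cortex, 67.0 ± 30.3 in striatum and 105 ± 46.8 in hypothalamus (SD).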

How the data were processed

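Small RNA libraries of 4 tissues were analysed from tables of whole-number counts per miRNA hairpin and library, which the authors deposited without normalization. Tools listed in the submitters' processing notes are HTSeq 0.10.0 and STAR 2.7.3a, with the builds GRCm38 and mm10; trimming and the treatment of reads that match several places are not given in the sources used here. The members, lists and tests were chosen with earlier results of these data known. All 273 libraries were mapped from their labels, and no pair of libraries of 1 tissue had identical counts.

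Tests used edgeR 4.0.16 in R 4.3.3 (TMM, filterByExpr, quasi-likelihood F tests on the whole table, Benjamini-Hochberg adjustment, threshold 0.05). A single model over the 273 libraries, with terms for tissue and ZT, gave the tissue ratios, and a model per tissue with ZT terms gave the passage ratios. The SE of a log2 ratio is a Wald value. Ratios and correlations used two-sided permutation tests of 100000 resamples in Python 3.11.15 with numpy 2.4.6. The functions were tested on simulated counts with 200 changed hairpins. A library stood apart if its median correlation lay over 5 median absolute deviations below its tissue's median. DESeq2 1.42.0, other scalings, filters, time windows, library run and left-out libraries served as alternatives. Named hairpins were the members, the 3 most like each member by 2 measures among hairpins of at least 10 CPM, and the liver list; single libraries and miR-144 and miR-101c were named as context. p-values measure the spread between libraries. Animals shared between tissues paired libraries by the animal code in the labels. The median correlation of same-animal deviations was 0.05 for cortex and striatum, 0.04 for cortex and hypothalamus and −0.05 for striatum and hypothalamus. For liver it was −0.02 with cortex, 0.01 with striatum and 0.003 with hypothalamus. Loci came from GENCODE vM21, matched by gene name.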

Additional observations from a re-analysis of the deposited data

Results flagged for a closer look

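Over 80 groups of 4 to 10 libraries, 7 had a library with an unusual gap to the rest of its group, where chance gives about 5%. miR-802 was at 608 CPM in liver ZT15 replicate 2, where the next highest of 6 libraries had 400.2 CPM, and at 0 CPM in striatum ZT0 replicate 7, where the next lowest had 1.56 CPM. miR-1948 was at 551 CPM in liver ZT18 replicate 3, with the next at 457 CPM. miR-101a was at 17881 CPM in striatum ZT9 replicate 6, with the next at 10914 CPM, and at 20611 CPM in striatum ZT21 replicate 3, with the next at 10573 CPM. The log2 ratio of miR-101a to miR-101b was 2.55 in cortex ZT18 replicate 5, with the next at 2.16, and 1.73 in hypothalamus ZT18 replicate 1, with the next at 2.14. The 3 striatum libraries are among those that stood apart from their tissue, and ZT9 replicate 6 had 26341 counts in all. The part of depth in these values was not tested.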

How the results depend on the processing

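Of 524 values under other settings, 482 kept their direction and their side of the threshold, 25 changed sign, 1 newly passed and 16 moved without a test. Rhythm sizes are never negative, so those among the 482 could not change sign. Between regions a call also needed a 2-fold difference, so a shift in adjusted p alone counted as kept. No edgeR call of a member was lost, but the correlation of miR-1948 with miR-101b in liver no longer passed without the 2 libraries farthest out (permutation, adjusted p = 0.938). Adding the replicate number as a replicate block gave miR-101a in hypothalamus a rhythm size of 0.28 (adjusted p = 0.0322), though the number only names a library; the cause was not tested. With library totals the passage value of miR-101a was 0.0083 in liver and 0.025 in cortex, and with run as a term it was 0.0077 in cortex, where miR-1948 was −0.040. Cortex over striatum for miR-1948 was 0.031 without a filter, 0.045 with run as a term, 0.047 in brain libraries alone and 0.0062 with animal as a replicate block, the pairing given by the animal codes, which changed no call between regions. Cortex over hypothalamus was −0.22 for miR-101a and −0.10 for miR-1948 with DESeq2 size factors, −0.22 and −0.11 with DESeq2, and for miR-101b 0.048 with run as a term and 0.044 in brain libraries alone. The passage difference of the miR-101a to miR-101b ratio in striatum was 0.045 without the libraries that stood apart and 0.026 within runs, in hypothalamus −0.012 within runs, and cortex minus striatum was −0.014 in paired animals. Without the 2 libraries farthest out, the correlations of miR-1948 with miR-101a and miR-101b in liver were 0.23 and 0.0092, and those of liver with cortex were 0.050 for miR-802 and −0.018 for miR-101a. These changes of sign were of values not past the threshold, except miR-1948 with miR-101b, and miR-101a between cortex and hypothalamus passed with DESeq2 (adjusted p = 4.76e-06). Their cause was not tested. For miR-101b, cortex over hypothalamus also reached −0.30 without a change of sign. Its lowest adjusted p over 10 edgeR and DESeq2 settings was 2.44e-19.

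For liver over cortex, striatum and hypothalamus, library totals gave −0.86, −1.17 and −0.86 for miR-101a, 1.99, 1.71 and 1.91 for miR-101b, 6.69, 6.63 and 6.80 for miR-1948 and 5.65, 7.42 and 8.31 for miR-802, and DESeq2 size factors gave 3.74, 3.33 and 3.44 for miR-101b, 0.43 and 0.66 for miR-101a and 8.26 and 8.33 for miR-1948 against striatum and hypothalamus. Leaving out each library in turn, passage values ran from −0.055 to 0.00033 for miR-101a and from −0.017 to 0.080 for miR-1948 in cortex, and from −0.036 to 0.0023 for miR-101a in liver. miR-101b in cortex kept its call, with adjusted p from 0.00393 to 0.0338, and miR-802 in liver stayed at 0.0871 to 0.656. miR-802 had under 4 counts in 20 of 46 striatum and 49 of 72 hypothalamus libraries, which limits its precision there.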
